A study of Mus musculus with 68 samples.

Results

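Eph receptors and ephrins were followed through a gain-of-function screen in mouse motor neurons. The 9 members, 5 receptors (Epha3, Epha4, Epha5, Epha7 and Ephb1) and 4 ephrins (Efna1, Efna3, Efna5 and Efnb2), were taken by name and make up 9 of the 19938 genes measured with probes annotated to 1 symbol. Another 8 receptors and 4 ephrins of the family were measured too and are given near the end. Values are those of a transcript cluster, the probe set that stands for a transcript on these arrays. A symbol with more than 1 was read from its brightest cluster on average. This applied to Ephb1.

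The cells were motor neurons made from C57/BL6 embryonic stem cells, which had been grown as embryoid bodies and given retinoic acid and Smoothened agonist on day 2. On day 5 they were dissociated and sorted with magnetic beads for a motor neuron reporter carried as a transgene, the surface protein CD2 or CD14, and then kept on matrigel for 30 h with doxycycline to switch on a candidate determinant of phrenic motor neurons, the cells that innervate the diaphragm. RNA of 45 CD2 arrays and 23 CD14 arrays was measured in 31 groups spread over 8 batches numbered 0 to 7 in the labels. The control in both reporter backgrounds was YFP, a fluorescent protein, with 4 arrays in each.

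In CD2 cells the induced genes were Klf5, Sfmbt2, Pou3f1, Zbtb7c, Hey1, Klf6, Chd5, Btbd3, Vwc2, Arid5b, Tox, Hoxa5, Hoxc6, Zic1, Lhx3, Lhx3 (DN) and the Notch1 intracellular domain (Notch1 ICD). CD14 cells carried Pou3f1, Flag with Pou3f1, Pou3f1 with Hoxa5, Pou3f1 with Hoxc6, Pou3f1 with Lhx3, Pou3f1 with Lhx3 (DN), or NERT. The labels and the plots join such names by a semicolon. Notch1 ICD and NERT were each induced for all 30 h or only for the last 10 h. The parental lines H4 (CD2, 3 arrays) and E3 (CD14, 1 array) and an induced E3 set in batch 0 (2 arrays) complete the groups. Pou3f1 in CD2 cells had 4 arrays and every remaining group had 2. The names H4, E3, NERT and (DN) are used as the labels give them. Every group, YFP included, shared the strain, the retinoic acid and Smoothened agonist treatment and the reporter sort, so none stands for an untreated cell.

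Eph receptors are tyrosine kinases on the cell surface, and ephrins are their membrane-bound ligands: ephrin-As are held by a lipid anchor and ephrin-Bs cross the membrane. Contact between a cell with the receptor and a cell with the ligand can send signals into both, and a growing axon often turns away from it. In motor neurons the family guides axons at choice points of the limb, where EphA4 steers lateral motor column axons dorsally away from ephrin-A in the ventral limb and EphB receptors steer others away from ephrin-B. Epha3 and Epha7 are also known from motor neurons of the medial column and from cortical and retinal maps, and Efnb2 and Efna1 from blood vessels as well as from the nervous system.

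Promoter windows of 5 members are printed because these genes carried most of the changes described further on: Efna1 (Notch lines), Epha5 and Ephb1 (Pou3f1 lines), and Epha4 and Efnb2 (Lhx3, Hoxc6 and Notch lines). Each holds 250 bases before and 50 bases from the annotated start onwards, from RefSeq on GRCm38.p6, written 5′ to 3′ on the strand of the gene; all 5 lie on the minus strand. Capitals mark a match to 1 of 4 motifs searched on both strands: TGGGAA (core of RBPJ, the DNA-binding partner of Notch), ATGCAAAT (the octamer of POU factors), TAATTA (a LIM homeodomain core) and TGATTNAT (a Hox-Pbx site).

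Efna1, first start, chr3:89280902-89281201: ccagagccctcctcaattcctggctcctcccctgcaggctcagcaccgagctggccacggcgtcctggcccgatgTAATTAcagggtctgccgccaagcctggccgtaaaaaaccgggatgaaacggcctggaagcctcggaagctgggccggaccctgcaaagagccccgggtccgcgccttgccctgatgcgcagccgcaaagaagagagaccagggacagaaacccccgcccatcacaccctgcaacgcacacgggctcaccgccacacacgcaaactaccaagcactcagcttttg
Epha5, chr5:84417333-84417632: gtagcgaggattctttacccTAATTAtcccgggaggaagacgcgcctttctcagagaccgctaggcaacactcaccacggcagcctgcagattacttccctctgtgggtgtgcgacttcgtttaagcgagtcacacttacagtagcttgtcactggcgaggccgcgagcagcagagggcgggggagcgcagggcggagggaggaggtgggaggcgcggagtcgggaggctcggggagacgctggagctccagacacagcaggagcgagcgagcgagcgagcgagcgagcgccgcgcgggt
Ephb1, chr9:102354644-102354943: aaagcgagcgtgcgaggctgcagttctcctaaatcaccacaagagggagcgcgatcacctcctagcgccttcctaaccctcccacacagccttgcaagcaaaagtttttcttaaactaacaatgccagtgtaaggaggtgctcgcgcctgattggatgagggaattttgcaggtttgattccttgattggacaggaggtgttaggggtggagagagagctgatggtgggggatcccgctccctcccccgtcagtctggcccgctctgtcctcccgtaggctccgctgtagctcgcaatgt
Epha4, chr1:77515039-77515338: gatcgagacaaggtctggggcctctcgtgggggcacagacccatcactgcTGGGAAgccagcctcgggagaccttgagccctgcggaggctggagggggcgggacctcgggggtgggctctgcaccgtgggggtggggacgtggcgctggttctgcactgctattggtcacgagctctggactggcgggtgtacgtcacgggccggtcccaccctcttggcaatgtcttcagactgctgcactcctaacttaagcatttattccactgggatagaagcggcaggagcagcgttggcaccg
Efnb2, chr8:8661193-8661492: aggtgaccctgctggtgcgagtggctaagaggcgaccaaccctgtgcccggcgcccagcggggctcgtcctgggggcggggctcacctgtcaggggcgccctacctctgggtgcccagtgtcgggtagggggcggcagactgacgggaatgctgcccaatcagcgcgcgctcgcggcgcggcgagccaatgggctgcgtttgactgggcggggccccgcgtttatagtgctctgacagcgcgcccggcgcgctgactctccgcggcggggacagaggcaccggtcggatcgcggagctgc

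All 9 members had at least 1 window, 12 in all, because Epha7, Efna1 and Efna3 have more than 1 annotated start. Counted from the start, TAATTA began at -230 in the Epha5 window and at -175 in the first Efna1 window. TGGGAA occurred once in the Epha4 window, at -200, in both overlapping Epha7 windows and in the first Efna3 window. It is found in 25.6% of all 32851 promoter windows. TAATTA was in 5.29% of all windows, TGATTNAT in 3.22% and ATGCAAAT in 1.74%, and neither TGATTNAT nor ATGCAAAT was in any of the 12. GC content ran from 55.7% in Ephb1 to 73.3% in Efna5, against a median of 52.7% over all windows. A match describes the letters only.

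Array medians of the log2 values lay between 7.57 and 7.84 in batches 1 to 7 and between 7.08 and 7.09 in batch 0. Markers fitted the labelled cell type: 10 of 11 measured motor neuron markers lay above the median gene, with Isl1 at 11.4 to 13.5, while 0 of 8 pluripotency markers did. Neural progenitor markers were present too, 12 of 13 above the median gene. In 6 of the 9 batch 4 arrays (1 Hoxa5, 1 Chd5, 2 Pou3f1, 1 H4 and 1 Arid5b), Hoxa5 read 12.14 to 12.75 whichever gene had been induced. It read 9.62 to 9.90 in the other 3 (Notch1 ICD for 10 h and Hey1). Members moved with this split, so many member results are also given without these 6 arrays. Values of other genes and of cell markers are from all arrays unless stated. In bulk RNA, fewer cells with a transcript and less of it per cell cannot be told apart.

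A log2 value of a member is compared only with the same member in other arrays, since probes of different genes respond differently. Differences from YFP come from a limma model with a term for each group and each batch, so they can depart from the plain gap between arrays where the batches differ. ± is the standard error of that model, adjusted p is two-sided limma with Benjamini-Hochberg adjustment over all 19938 genes of a comparison, and a gene rose or fell where it was under 0.05. Each group of 2 arrays borrows its spread from all groups. Batches 4 and 5 hold no YFP and batch 6 no CD2 YFP. Without the 6 arrays, batch 5 and the CD2 arrays of batch 6 are tied to CD2 YFP only through H4. That tie is a single H4 array in batch 2 and another in batch 5. Batch 4 is then tied only through Hey1.

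Over the 27 comparisons with YFP, 33 of 243 pairs of a member and a line passed the test, 29 higher and 4 lower than YFP, in 15 lines. Pou3f1 with Lhx3 (DN) moved the most members, 5 of 9 (4 rose and 1 fell), where 4% of all genes changed. The median difference over the 9 members there was 0.90, against -0.01 over all genes. Pou3f1 with Lhx3 followed with 4 of 9 (3 rose, 1 fell) against 3.94%, and a median of 0.54 against -0.01. Under Pou3f1 with Hoxc6, 4 of 9 changed (3 rose, 1 fell) against 8.98% of all genes. Lhx3 gave 3 rises against 3.81%, and Notch1 ICD for 30 h gave 3 against 6.07%.

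Lines with 2 members higher were Lhx3 (DN), where 4.09% of all genes changed, Hoxc6 (2.35%), Notch1 ICD for 10 h (2.96%) and NERT for 30 h (4.7%). Lines with 1 member higher were Pou3f1 in CD2 cells (2.09%), Pou3f1 in CD14 cells (0.306%), Pou3f1 with Hoxa5 (5.92%), Flag with Pou3f1 (2.44%) and NERT for 10 h (0.416%). Klf5 had 1 member lower, against 0.311%. Leaving out the 6 arrays, the share of all genes was 0.772% for Notch1 ICD for 10 h (1 member called), 0.667% for Pou3f1 in CD14 cells (2), 0.677% for NERT for 10 h (1), 3.96% for Flag with Pou3f1 (2) and 0.426% for Klf5, whose member then missed the threshold. It was 1.96% for Hoxc6 (4), 4.21% for Lhx3 (4), 5.38% for Lhx3 (DN) (2) and 2.64% for Pou3f1 in CD2 cells (1). Notch1 ICD for 30 h stood at 7.04% (4) and NERT for 30 h at 6.22% (2). Pou3f1 stood at 7.99% with Hoxa5 (2), 10.9% with Hoxc6 (4), 4.93% with Lhx3 (4) and 5% with Lhx3 (DN) (5).

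In 12 comparisons no member passed the limma test, although 20 of their 108 pairs had an unadjusted p under 0.05 and the largest difference was 1.43. Few genes of any kind passed in these: 0% for Sfmbt2, Chd5 and Hoxa5, 0.00502% for the H4 parental line, 0.01% for Arid5b, 0.015% for Vwc2, 0.0251% for Zbtb7c, 0.0451% for Btbd3, 0.0602% for Tox, 0.291% for Zic1, 0.361% for Hey1 and 0.471% for Klf6. Without the 6 arrays the share was 0.642% for H4, 1.12% for Klf6, 0.461% for Zic1, 0.191% for Hey1 and 0.186% for Tox. It was at most 0.0752% for Sfmbt2, Zbtb7c, Btbd3 and Vwc2, and 1 member (Efnb2) passed with Zic1. Hoxa5, Chd5 and Arid5b then kept a single array each, so no count is given for them. For the 3 lines at 0%, 1644, 1022 and 2071 genes had an unadjusted p under 0.05, among them 2, 0 and 2 members. The E3 parental line, a single array with no test, differed from YFP by -0.14 (Epha4) to 0.34 (Efnb2).

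**Figure D1:**
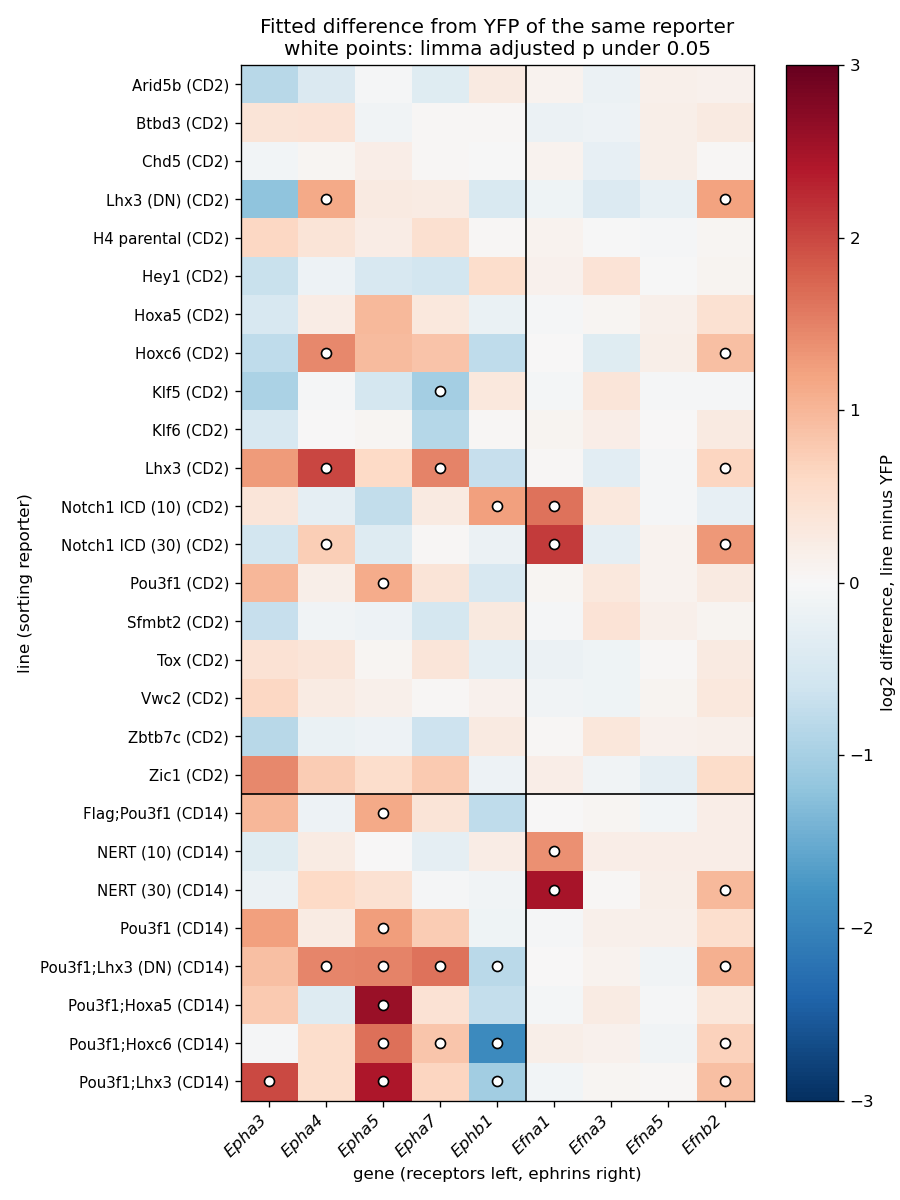
Log2 difference from YFP of the same reporter for the 9 members (columns) in the 27 comparisons (rows), from the model with batch terms. Colour gives the difference and a white point an adjusted p under 0.05; there are 8 points in Efnb2, 7 in Epha5, 5 in Epha4, 4 each in Efna1, Epha7 and Ephb1 and 1 in Epha3, and Efna3 and Efna5 have none.

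Among the receptors, Epha5 was the one that followed Pou3f1, a POU-domain factor of phrenic neurons. It is an ephrin-A receptor best known from topographic maps of the forebrain and retina. Epha5 rose in all 7 lines that carried Pou3f1 and, with all arrays in the model, in no other line. In CD14 cells the 4 YFP arrays read 7.70 and 7.53 in batch 6 and 7.15 and 6.97 in batch 7. Pou3f1 arrays read 8.87 and 8.87, Flag with Pou3f1 8.81 and 8.72, and Pou3f1 with Lhx3 (DN) 8.89 and 9.34. Pou3f1 with Hoxc6 read 9.30 and 9.22, Pou3f1 with Lhx3 9.56 and 9.43, and Pou3f1 with Hoxa5 10.19 and 10.23. The 12 CD14 arrays with Pou3f1 thus ran from 8.72 to 10.23 and the 11 without it from 6.97 to 7.88, with no overlap.

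The rise of Epha5 over YFP was 2.59 ± 0.27 with Pou3f1 and Hoxa5 (6.04-fold, adjusted p = 4.02e-08) and 2.44 ± 0.27 with Pou3f1 and Lhx3 (5.41-fold, adjusted p = 4.12e-08). It was 1.64 ± 0.27 with Hoxc6 (3.12-fold, adjusted p = 3.88e-05) and 1.50 ± 0.27 with Lhx3 (DN) (2.82-fold, adjusted p = 0.000183). Pou3f1 alone gave 1.26 ± 0.27 (2.39-fold, adjusted p = 0.0198) and Flag with Pou3f1 1.15 ± 0.27 (2.21-fold, adjusted p = 0.0144). The last 2 calls were lost when any of the 4 batch 6 arrays compared was left out, with differences of 1.17 to 1.34 (adjusted p 0.12 to 0.389) for Pou3f1 and 1.06 to 1.23 (0.09 to 0.14) for Flag with Pou3f1. Fitted on batch 6 alone the adjusted p was 0.0016 and 0.00249.

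In CD2 cells, Epha5 read 8.34, 8.38, 8.28 and 8.19 under YFP. Pou3f1 arrays read 9.64 in batch 1, 10.02 in batch 2, and 9.94 and 10.21 in batch 4, all above every YFP array, and the latter are among the 6 arrays with high Hox levels. The difference was 1.12 ± 0.21 (2.17-fold, adjusted p = 0.00171) with all arrays and 1.58 ± 0.17 (adjusted p = 3.44e-07) without those 6. Set against each other, the Pou3f1 effects on Epha5 (CD14 less CD2) differed by 0.14, with a 95% interval from -0.55 to 0.83. Without the 6 arrays the direction turned, to -0.32 with an interval from -0.83 to 0.19. No member passed this limma test of the difference between reporters, 0 had an unadjusted p under 0.05, and 0.01% of all genes passed it (1190 genes at an unadjusted p under 0.05). With the 6 arrays left out, 0 members passed it in limma, the lowest unadjusted p being 0.196, and 0.00502% of all genes did.

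Outside the Pou3f1 lines, Epha5 was high in the Hox lines of CD2 cells. Hoxa5 arrays read 9.87 (batch 4, 1 of the 6) and 9.49 (batch 5), and Hoxc6 arrays 9.41 and 8.91. All 4 lay above every YFP array of CD2 cells, and neither line passed the test with all arrays. With the 6 arrays left out, Epha5 rose by 1.43 with Hoxc6 (adjusted p = 0.00907) and fell by 0.59 with Notch1 ICD for 30 h (adjusted p = 0.0308). Hoxa5 then kept only its batch 5 array, which differed by 1.76. Both Hox lines were tied to YFP only through H4 in that fit. The same line could read high or low by array: Chd5 read 7.78 in batch 3 and 9.97 in batch 4, H4 8.74, 9.80 and 8.12 in batches 2, 4 and 5, and Arid5b 8.03 and 9.24 in batches 3 and 4. The batch 4 arrays of each are among the 6.

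Ordered by group mean, Epha5 ran from Pou3f1 with Hoxa5 down to NERT for 10 h at 7.02 to 7.10. Of the 30 steps between neighbouring groups, 7 had array ranges that did not overlap. The remaining neighbours could not be ordered by their arrays.

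Epha3, an ephrin-A receptor with a high affinity for ephrin-A5, had the largest standard errors of the 9 members, up to 0.66. YFP arrays read 7.37, 6.92, 7.86 and 7.38 in CD14 cells and 7.46, 8.64, 7.60 and 8.39 in CD2 cells. Pou3f1 with Lhx3 read 9.61 and 9.58, above every other CD14 array. Only this line passed against YFP, at 1.98 ± 0.45 (3.94-fold, adjusted p = 0.00508), with 7 of 27 comparisons at an unadjusted p under 0.05. The call was lost without replicate 2 of the batch 7 YFP arrays (1.74, adjusted p = 0.143) or without either array of the line (1.96 and 1.99, adjusted p 0.0574 and 0.0506). On batch 7 alone the adjusted p was 0.000115.

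Pou3f1 alone gave Epha3 8.44 and 8.29 in CD14 cells and 8.89, 9.35, 8.18 and 8.02 in CD2 cells, the last pair among the 6 arrays. H4 arrays spanned 7.15 to 9.73. The lowest group means were those of Hoxc6, Arid5b, Lhx3 (DN) and Hoxa5 in CD2 cells, whose arrays read 6.54 to 7.10. Under Lhx3 alone the arrays stood apart, at 9.13 in batch 5 and 7.30 in batch 6, while Lhx3 (DN) read 6.74 and 6.92. Of 30 neighbouring steps in the order of group means, 3 did not overlap.

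Epha4, the receptor that binds both ephrin classes and marks dorsally growing limb axons, was highest where Lhx3, its (DN) form, Hoxc6 or Notch was altered. YFP arrays read 9.33, 9.39, 9.72 and 9.66 in CD14 cells and 8.71, 9.71, 9.57 and 9.74 in CD2 cells, where the lowest is the batch 1 array. Lhx3 arrays read 11.23 and 10.65, and Lhx3 (DN) 10.82 and 10.72. Pou3f1 with Lhx3 (DN) read 10.80 and 10.84. All of these lay above every YFP array of either reporter.

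Epha4 rose by 2.01 ± 0.32 with Lhx3 (4.04-fold, adjusted p = 0.000259), 1.14 ± 0.21 with Lhx3 (DN) (2.21-fold, adjusted p = 0.000378) and 1.45 ± 0.22 with Pou3f1 and Lhx3 (DN) (2.74-fold, adjusted p = 1.69e-05). Hoxc6 arrays, at 10.88 and 10.13, also lay above YFP, with a rise of 1.43 ± 0.30 (2.70-fold, adjusted p = 0.00506). Notch1 ICD for 30 h read 10.44 and 10.31 and rose by 0.74 ± 0.21 (1.68-fold, adjusted p = 0.0223). Leaving the 6 arrays out, the differences in CD2 cells were 2.54 (Lhx3), 1.18 (Lhx3 (DN)), 1.96 (Hoxc6) and 0.78 (Notch1 ICD for 30 h), all past the threshold. Those of Lhx3 and Hoxc6 then run to YFP only through H4.

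Single arrays carried part of these Epha4 calls. Without the batch 5 Lhx3 array the Lhx3 difference was 1.58 (adjusted p = 0.274), and without replicate 2 of Hoxc6 that of Hoxc6 was 1.06 (0.0762). The Notch1 ICD call was lost without either of its arrays (0.68 and 0.81) or without replicate 1 of the batch 3 YFP arrays (0.71, adjusted p = 0.0665). It was also missed on batch 3 alone (0.72, adjusted p = 0.0516), without batch terms (0.94, 0.0828) and with the reporters fitted apart (0.74, 0.0917). Lhx3 (DN), with or without Pou3f1, kept its rise whichever array of the comparison was left out.

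At the low end, Epha4 read 8.93 and 9.01 with Pou3f1 and Hoxa5, 8.77 and 8.91 in the induced E3 arrays of batch 0 that enter no comparison, and 9.08 to 9.19 with Sfmbt2. No line fell below YFP by the test, and 10 of 27 comparisons had an unadjusted p under 0.05. In the order of group means 4 of 30 neighbouring steps did not overlap.

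Epha7, a receptor of ephrin-As expressed in motor neurons and in the cortex, rose in 3 lines and fell in 1. YFP arrays read 8.61, 8.26, 9.22 and 9.27 in CD14 cells, the first 2 in batch 6, and 9.44, 9.75, 9.51 and 9.79 in CD2 cells. Pou3f1 with Lhx3 (DN) read 10.00 and 10.16, above all 8. The rise was 1.64 ± 0.25 (3.12-fold, adjusted p = 1.49e-05).

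Lhx3 arrays read 10.18 and 9.83 for Epha7, also above YFP, the lower one only just. The fitted rise was 1.50 ± 0.36 (2.83-fold, adjusted p = 0.0167), and 1.57 (adjusted p = 0.0422) without the 6 arrays. Both Lhx3 arrays lie in batches without CD2 YFP, and without batch terms the difference was only 0.38 (adjusted p = 0.451). With batch terms but without the batch 5 Lhx3 array, a single Lhx3 array was left, the difference was 1.82 and the call was lost. With the reporters fitted apart it was 1.50 (adjusted p = 0.0764), not a call either. Pou3f1 with Hoxc6 read 9.27 and 9.25, above the batch 6 YFP arrays and close to those of batch 7, and rose by 0.82 ± 0.25 (1.77-fold, adjusted p = 0.0313). That call was lost without any of the 4 batch 6 arrays (0.64 to 1.00, adjusted p 0.0619 to 0.264) and held on batch 6 alone (0.0133).

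With Klf5, a zinc finger factor, Epha7 read 8.18 in batch 1 and 9.06 in batch 2, below every CD2 YFP array. It fell by 1.01 ± 0.23 on the log2 scale (2.02-fold, adjusted p = 0.0394). The difference was -0.95 (adjusted p = 0.0709) without the 6 arrays. It was -0.97 to -1.05 (adjusted p 0.059 to 0.209) without the YFP array of batch 1, of batch 2 or replicate 2 of batch 3. With the batch 2 Klf5 array alone it was -0.69, in the full model or on batch 2 alone, and the call was lost. Epha7 had the most comparisons at an unadjusted p under 0.05 among the EphA members, 13 of 27, and just 1 of its 30 neighbouring steps did not overlap.

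**Figure D2:**
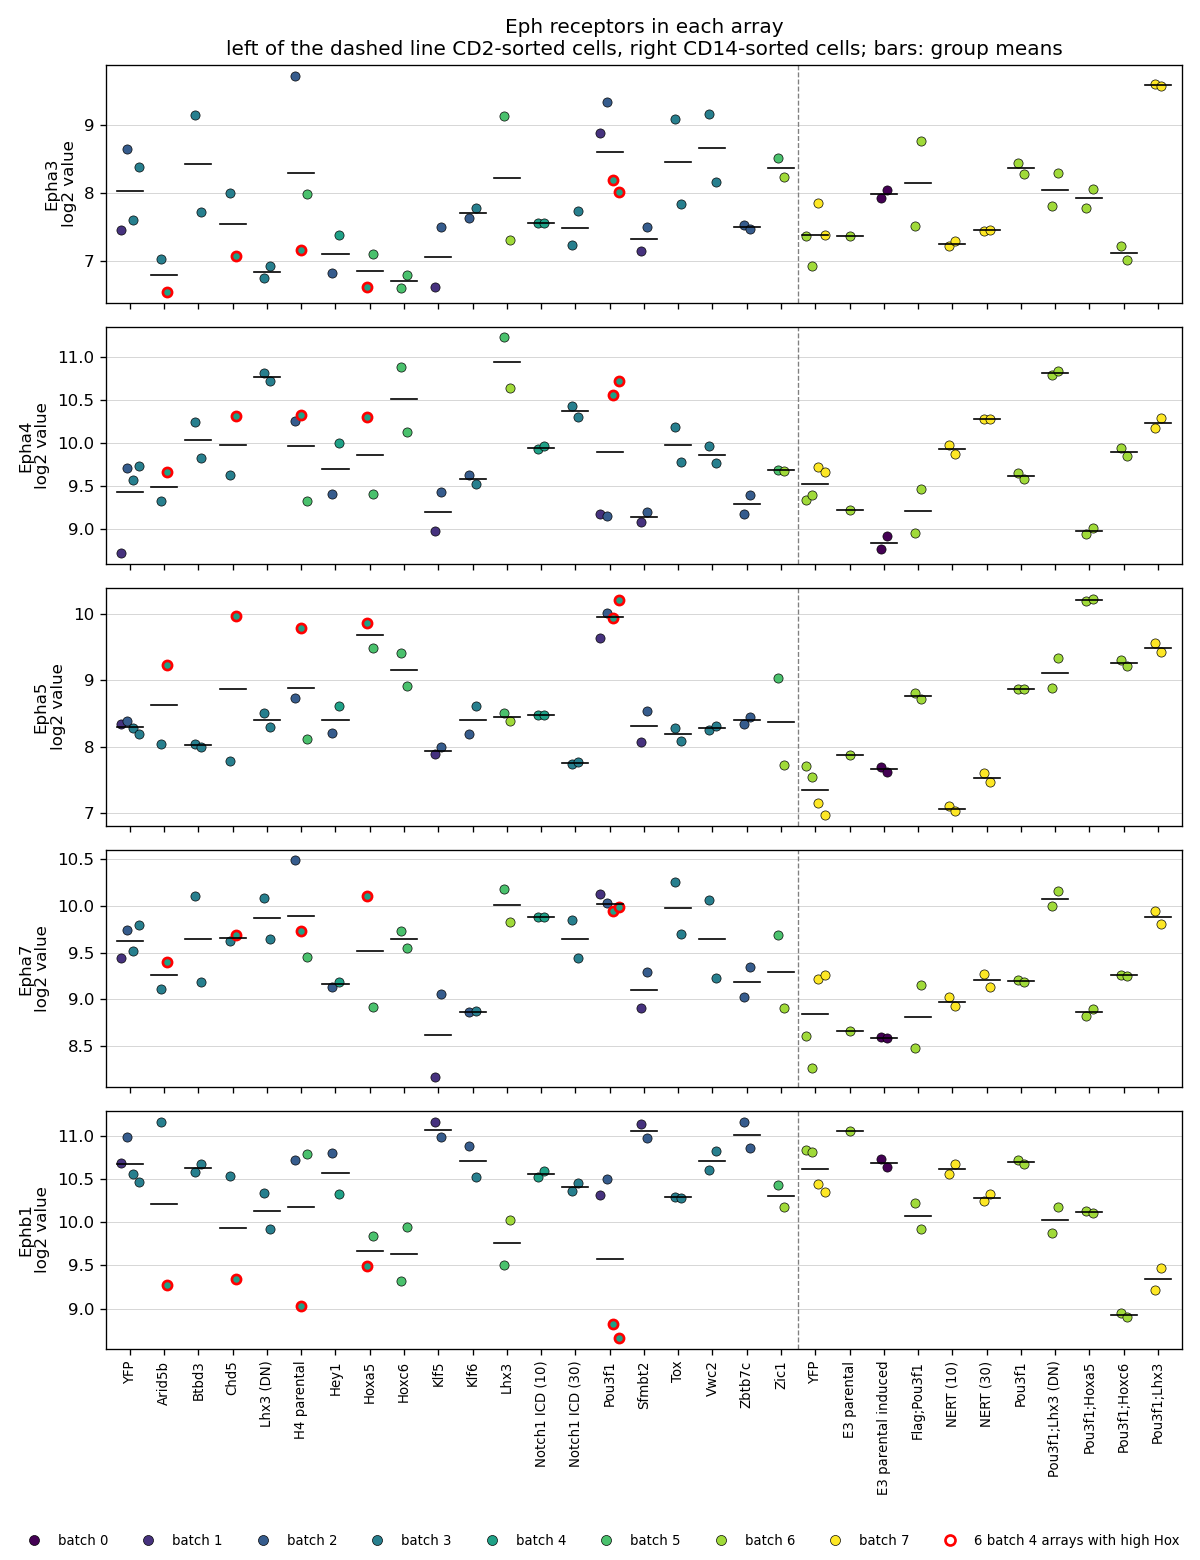
Log2 values of the 5 receptors in each array by group, coloured by batch, with group means as bars and a dashed line between CD2 groups (left) and CD14 groups (right). Red rings mark the 6 batch 4 arrays with high Hox levels; Epha5 reads 8.72 or more in all CD14 arrays with Pou3f1 and 7.88 or less in those without.

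Ephb1, the receptor of ephrin-Bs that steers ventrally growing axons, ran the other way. It was lower than YFP in 3 Pou3f1 lines. YFP arrays read 10.84, 10.82, 10.44 and 10.35 in CD14 cells and 10.69, 11.00, 10.56 and 10.47 in CD2 cells. Pou3f1 with Hoxc6 read 8.95 and 8.90, the lowest of the CD14 arrays. It fell by 1.91 ± 0.24 on the log2 scale (3.75-fold, adjusted p = 4.56e-07), a call that no left-out array changed.

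Pou3f1 with Lhx3 read 9.21 and 9.47 for Ephb1 and fell by 1.05 ± 0.24 on the log2 scale (2.08-fold, adjusted p = 0.00474). Without replicate 1 of the batch 7 YFP arrays the difference was -1.01 (adjusted p = 0.066), and without replicate 3 of the line -0.92 (0.111). Pou3f1 with Lhx3 (DN) read 9.88 and 10.18 and fell by 0.80 ± 0.24 on the log2 scale (1.74-fold, adjusted p = 0.0497), a call lost without any single array of the line or of YFP (-0.65 to -0.95, adjusted p 0.0566 to 0.447). All 3 pairs of arrays lay below every CD14 YFP array, and all 3 differences passed on their own batch alone (adjusted p = 6.29e-06, 0.000571 and 0.00163).

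The other Pou3f1 lines were not called for Ephb1. Pou3f1 with Hoxa5 read 10.13 and 10.11 and Flag with Pou3f1 10.23 and 9.93, all below the YFP arrays. Their differences were -0.71 and -0.75 with or without the 6 arrays. Adjusted p was 0.0729 and 0.0844 with all arrays, and 0.00591 and 0.00763 without the 6. Pou3f1 alone read 10.72 and 10.68, within the range of YFP. In CD2 cells Pou3f1 read 10.32, 10.51, 8.82 and 8.66, and the last pair are the batch 4 arrays with high Hox levels.

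Ephb1 was also low in the CD2 lines with Hox genes, at 9.50 and 9.84 for Hoxa5 and 9.32 and 9.95 for Hoxc6, and at 9.50 and 10.03 for Lhx3. With the 6 left out, it fell by 1.30 with Hoxc6 (adjusted p = 0.0106) and by 1.23 with Lhx3 (adjusted p = 0.0173), where with them neither passed. Both of these falls run to YFP only through H4. Across batches H4 read 10.72, 9.03 and 10.79, Arid5b 11.16 and 9.28, and Chd5 10.53 and 9.34, and in each line the low value is 1 of the 6 arrays.

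The only rise of Ephb1 was with Notch1 ICD for 10 h, at 1.23 ± 0.25 (2.35-fold, adjusted p = 0.00274), and its arrays, 10.53 and 10.60, overlapped those of YFP. Batch 4, which holds both, has no YFP array and was tied to the controls by lines found in other batches too, among them those of the 6 arrays. Without those 6 the difference was 0.16 (adjusted p = 0.895), and without batch terms it was -0.12. Of 27 comparisons, 10 had an unadjusted p under 0.05, and 3 of 30 neighbouring steps did not overlap.

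Of the ligands, Efna1, a lipid-anchored ephrin, followed the Notch lines. All 8 arrays of NERT and Notch1 ICD read 8.76 to 10.01, and the other 60 arrays 6.74 to 7.86, with no overlap. YFP arrays read 7.26, 7.23, 7.49 and 7.53 in CD14 cells and 7.36, 7.25, 7.31 and 7.86 in CD2 cells. NERT read 8.89 and 8.90 after 10 h and 9.96 and 10.01 after 30 h. Notch1 ICD read 8.84 and 8.76 after 10 h and 9.51 and 9.79 after 30 h.

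Efna1 rose by 2.47 ± 0.14 with NERT for 30 h (5.55-fold, adjusted p = 3.84e-16) and by 2.10 ± 0.13 with Notch1 ICD for 30 h (4.29-fold, adjusted p = 5.3e-15). At 10 h the rises were 1.38 ± 0.14 with NERT (2.60-fold, adjusted p = 5.25e-08) and 1.64 ± 0.15 with Notch1 ICD (3.11-fold, adjusted p = 4.27e-09). The Notch1 ICD rises without the 6 arrays were 2.05 at 30 h and 1.68 at 10 h, both past the threshold. Efna1 rose in these 4 comparisons and no other, and each rise held under every alternative. Of its 30 neighbouring steps 6 did not overlap, 4 of them between and just below the Notch groups.

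Hes5, a direct Notch target, rose in the same lines by 1.74 (NERT, 10 h), 2.68 (NERT, 30 h), 1.23 (Notch1 ICD, 10 h) and 2.18 (Notch1 ICD, 30 h), with adjusted p from 8.75e-14 to 8.64e-05. Cell markers moved as well. With NERT for 30 h, 8 of 11 motor neuron markers fell and 3 of 13 progenitor markers rose, and the mean progenitor level was 11.13 to 11.15 against 10.02 to 10.50 under YFP. With Notch1 ICD for 30 h, 6 of 11 motor neuron markers fell and 2 progenitor markers rose, at 11.17 to 11.19 against 10.05 to 10.64. At 10 h, 0 of 11 motor neuron markers passed for NERT and 3 fell for Notch1 ICD. The marker Lhx3 was among those 3, at -1.28 (adjusted p = 0.00771), although its arrays read 7.75 to 8.11 against 7.69 to 7.86 under YFP. The 10 h Notch1 ICD arrays lie in batch 4, which has no YFP array, so this comparison runs through other lines, the 6 arrays among them. Marker counts without the 6 arrays are not given. The part of these markers in the rises of Efna1 and Efnb2 was not tested.

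**Figure D3:**
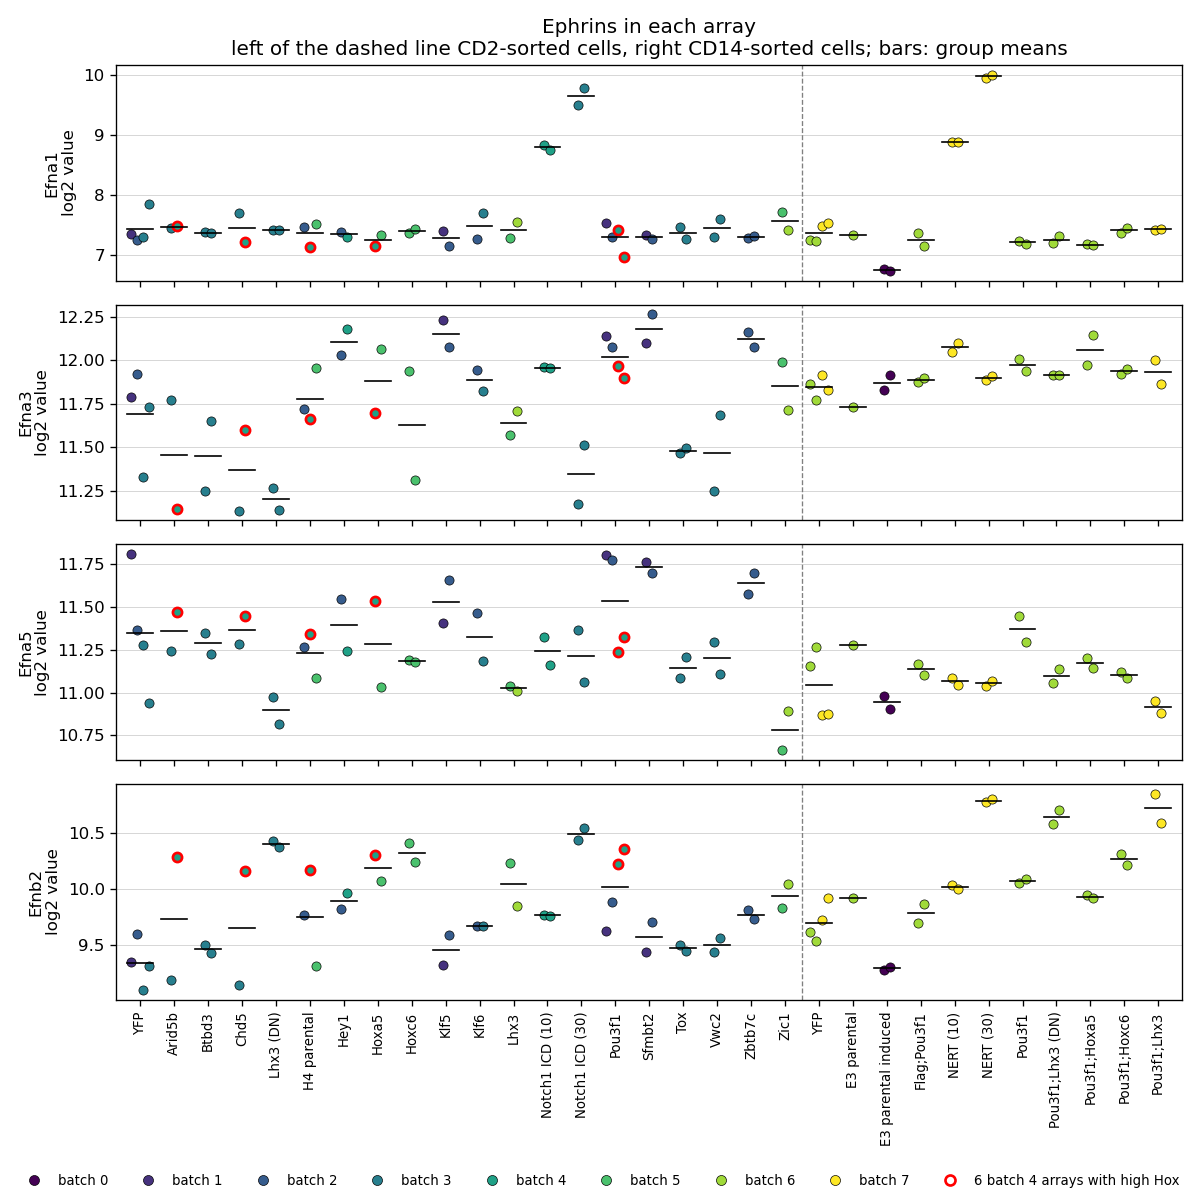
Log2 values of the 4 ephrins in each array by group, coloured by batch, with group means as bars and a dashed line between CD2 groups (left) and CD14 groups (right). Efna1 reads 8.76 to 10.01 in the 8 Notch arrays and at most 7.86 in all others, and red rings mark the 6 batch 4 arrays with high Hox levels.

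Efnb2, a transmembrane ephrin, had the most calls, 8 rises and no fall, and 17 of 27 comparisons at an unadjusted p under 0.05. YFP arrays read 9.62, 9.54, 9.72 and 9.92 in CD14 cells and 9.34, 9.59, 9.09 and 9.31 in CD2 cells. NERT read 10.03 and 10.00 after 10 h, not called, and 10.78 and 10.80 after 30 h, where it rose by 0.97 ± 0.13 (1.96-fold, adjusted p = 1.75e-06). Notch1 ICD read 9.77 and 9.76 after 10 h, not called, and 10.44 and 10.55 after 30 h, a rise of 1.30 ± 0.12 (2.47-fold, adjusted p = 3.07e-10). Both 30 h pairs lay above every YFP array.

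With Lhx3 (DN), Efnb2 read 10.43 and 10.38 and rose by 1.21 ± 0.12 (2.32-fold, adjusted p = 7.99e-09). With Pou3f1 and Lhx3 (DN) it read 10.58 and 10.70 and rose by 1.07 ± 0.13 (2.09-fold, adjusted p = 3.38e-07), and with Pou3f1 and Lhx3 10.85 and 10.59, by 0.90 ± 0.13 (1.87-fold, adjusted p = 1.14e-05). Pou3f1 with Hoxc6 read 10.32 and 10.21, a rise of 0.69 ± 0.13 (1.61-fold, adjusted p = 0.000466). None of these 8 arrays overlapped YFP of its reporter.

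Hoxc6 alone read 10.41 and 10.24 for Efnb2 and rose by 0.89 ± 0.18 (1.86-fold, adjusted p = 0.00339). Lhx3 alone read 10.23 and 9.85 and rose by 0.65 ± 0.19 (1.57-fold, adjusted p = 0.0462), lost without its batch 5 array (0.20, adjusted p = 0.919) or without the YFP array of batch 1, of batch 2 or replicate 1 of batch 3 (0.62 to 0.65, adjusted p 0.0563 to 0.0665). The CD2 rises without the 6 arrays were 1.26 (Hoxc6), 1.02 (Lhx3), 1.14 (Lhx3 (DN)) and 1.23 (Notch1 ICD, 30 h). Further rises then passed for Zic1 (0.91, adjusted p = 0.0289) and Pou3f1 in CD14 cells (0.49, adjusted p = 0.0246). Hoxa5, with a single array left, differed by 1.01. In that fit Hoxc6, Lhx3, Zic1 and Hoxa5 were tied to YFP only through H4. Of 30 neighbouring steps 2 did not overlap.

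Efna3 and Efna5, lipid-anchored ephrins, passed in no comparison. Efna3 read 11.14 to 12.26 over all 68 arrays with a median of 11.90, its differences from YFP ran from -0.40 to 0.40, and 6 of 27 had an unadjusted limma p under 0.05 (lowest adjusted p 0.191). Efna5 read 10.66 to 11.81 with a median of 11.20 and differences of -0.28 to 0.19, and 0 of 27 had an unadjusted limma p under 0.05 (lowest adjusted p 0.38). Their SD over all arrays stood at percentiles 72.4 and 58.1 of all genes, against 92 (Efnb2) to 99.1 (Epha5) for the other 7. In the order of groups, 2 and 1 of 30 neighbouring steps did not overlap. Standard errors of up to 0.25 and 0.19 leave room for small changes.

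Lines that differ by 1 transgene were compared directly. Adding Hoxa5 to Pou3f1 raised 1 of 9 members, where 3.45% of all genes changed: Epha5, at 10.19 and 10.23 against 8.87 and 8.87, by 1.34 ± 0.27 (2.53-fold, adjusted p = 0.00237). Without replicate 3 of Pou3f1 with Hoxa5 the difference was 1.32 (adjusted p = 0.0551). The Ephb1 difference was -0.58 with or without the 6 arrays, with an adjusted p of 0.195 with all arrays and 0.0356 without the 6.

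Adding Hoxc6 to Pou3f1 lowered 1 member, against 8.97% of all genes. Ephb1 read 8.95 and 8.90 against 10.72 and 10.68 and fell by 1.78 ± 0.24 on the log2 scale (3.43-fold, adjusted p = 2.96e-06). Between the Hox genes, Pou3f1 with Hoxc6 minus Pou3f1 with Hoxa5, 2 of 9 members passed against 0.973% of all genes: Epha4 was higher by 0.92 ± 0.22 (adjusted p = 0.0271) and Ephb1 lower, at -1.20 ± 0.24 (adjusted p = 0.00364). Both were lost without any of the 4 arrays (Epha4 0.87 to 0.96, adjusted p 0.165 to 0.337; Ephb1 -1.17 to -1.22, adjusted p 0.0511 to 0.0816). Without the 6 arrays Epha5 passed as well, at -0.95 (adjusted p = 0.0016), and in Hoxc6 with Pou3f1 against Pou3f1 so did Epha3, at -1.25 (adjusted p = 0.0389).

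Adding Lhx3 (DN) to Pou3f1 raised 2 of 9 members against 2.11% of all genes, Epha4 by 1.20 ± 0.22 (adjusted p = 0.000643) and Efnb2 by 0.57 ± 0.13 (adjusted p = 0.00968). The Efnb2 call was lost without either Pou3f1 array or replicate 2 of the other line (0.51 to 0.59, adjusted p 0.0785 to 0.153). Without the 6 arrays Epha7 (0.88, adjusted p = 0.0469) and Ephb1 (-0.67, adjusted p = 0.0161) passed too. That made 4 of 9 members, against 2.91% of all genes. Between Pou3f1 with Lhx3 and Pou3f1 with Lhx3 (DN), which lie in different batches, 0 of 9 passed in limma, against 1.23% of all genes. An unadjusted p under 0.05 was found for 3 of the 9 and for 7.02% of all genes. The differences there were 1.07 for Epha3 (95% interval -0.23 to 2.38), 0.94 for Epha5 (0.17 to 1.70), -0.92 for Epha4 (-1.56 to -0.27) and between -1.72 and -0.28 for Epha7.

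Flag with Pou3f1 minus Pou3f1 gave 0 of 9 members in limma, where 2.21% of all genes passed. An unadjusted p under 0.05 was found for 2 of the 9 and for 16.4% of all genes. The Epha5 difference was -0.11 (95% interval -0.65 to 0.43) and that of Ephb1 -0.62 (-1.11 to -0.13), which passed without the 6 arrays (adjusted p = 0.0308). Malat1, a nuclear RNA that is in no list, was looked at after its values were seen. In CD14 cells it read 12.21 to 12.25 in the Flag with Pou3f1 arrays and 11.96 to 12.11 in Pou3f1 with Hoxa5 or Hoxc6. CD14 arrays of YFP, Pou3f1 and Pou3f1 with Lhx3 (DN) read 10.36 to 10.98. NERT read 11.86 to 11.98 at 10 h and 11.51 to 11.61 at 30 h, and YFP in CD2 cells 11.84 to 12.49. Its part in the differences of these lines was not tested.

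Lhx3 minus Lhx3 (DN) in CD2 cells called 1 of 9 members against 3.77% of all genes. Epha3, at 9.13 and 7.30 against 6.74 and 6.92, was higher by 2.48 ± 0.73 (adjusted p = 0.047), and by 1.32 (adjusted p = 0.723) without the batch 5 Lhx3 array. Leaving out either Lhx3 (DN) array gave 2.39 and 2.57 (adjusted p 0.0588 and 0.115). Without the 6 arrays the difference was 3.44 (adjusted p = 0.0145), and Epha4 passed at 1.37 (adjusted p = 0.0425). That fit ties Lhx3 to Lhx3 (DN) only through H4.

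From 10 h to 30 h of NERT, 2 of 9 members rose against 3.78% of all genes. Efna1 went from 8.89 and 8.90 to 9.96 and 10.01, by 1.09 ± 0.14 (adjusted p = 1.31e-06), and Efnb2 from 10.03 and 10.00 to 10.78 and 10.80, by 0.77 ± 0.13 (adjusted p = 0.00014). For Notch1 ICD, 3 of 9 passed against 6.41% of all genes: Efnb2 by 1.56 ± 0.16 (adjusted p = 1.22e-08), Epha4 by 1.01 ± 0.28 (adjusted p = 0.0192) and Ephb1 by -1.42 ± 0.30 (adjusted p = 0.00168). Efna1 did not pass here, at 0.46 ± 0.18 (adjusted p = 0.123). The Notch1 ICD times lie in batches 4 and 3, so this comparison also runs through the 6 arrays. Without them Efnb2 gave 1.13 (adjusted p = 0.00276), Epha4 0.90 (0.26) and Ephb1 -0.26 (0.757). The Epha4 call was lost as well without replicate 1 of the 30 h arrays or either 10 h array (0.95 to 1.03, adjusted p 0.0639 to 0.11).

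**Figure D4:**
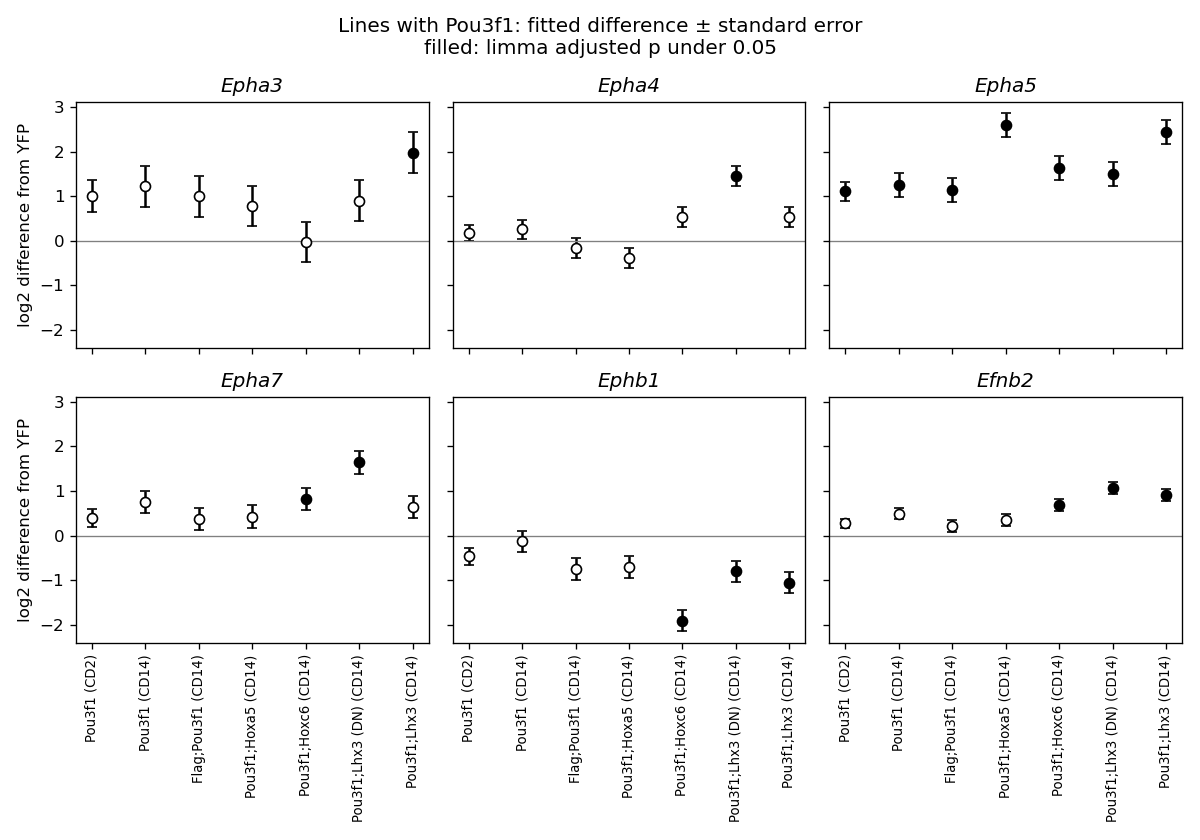
Log2 difference from YFP, with standard error bars, of Epha3, Epha4, Epha5, Epha7, Ephb1 and Efnb2 in the 7 lines that carry Pou3f1; filled points have an adjusted p under 0.05. Epha5 is filled in all 7, from 1.12 to 2.59, and Ephb1 lies at -1.91 with Hoxc6.

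The 6 batch 4 arrays with high Hox levels differed from the other 3 of that batch in 3 of 9 members without overlap, where 13.2% of all genes did not overlap between the same arrays. The other 3 are from Notch1 ICD for 10 h and Hey1, while the 6 include Pou3f1 and Hoxa5 arrays. No line is in both sets, so Hox level and induced gene cannot be told apart in this split. Epha5 read 9.24 to 10.21 against 8.47 to 8.61, Ephb1 8.66 to 9.50 against 10.34 to 10.60, and Efnb2 10.16 to 10.35 against 9.76 to 9.96. Hoxa5 also rose in lines with a Hox transgene, by 2.75 with Hoxc6, 2.77 with Pou3f1 and Hoxc6 and 1.66 with Pou3f1 and Hoxa5, and in 1 line without any, by 1.88 with Pou3f1 and Lhx3 (DN) (adjusted p = 0.000473). In the Hoxa5 line of CD2 cells it gave 1.17 (adjusted p = 0.323), with arrays at 10.59 and 12.75. Whether the Hox level sets Epha5, Ephb1 or Efnb2 was not tested.

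**Figure D5:**
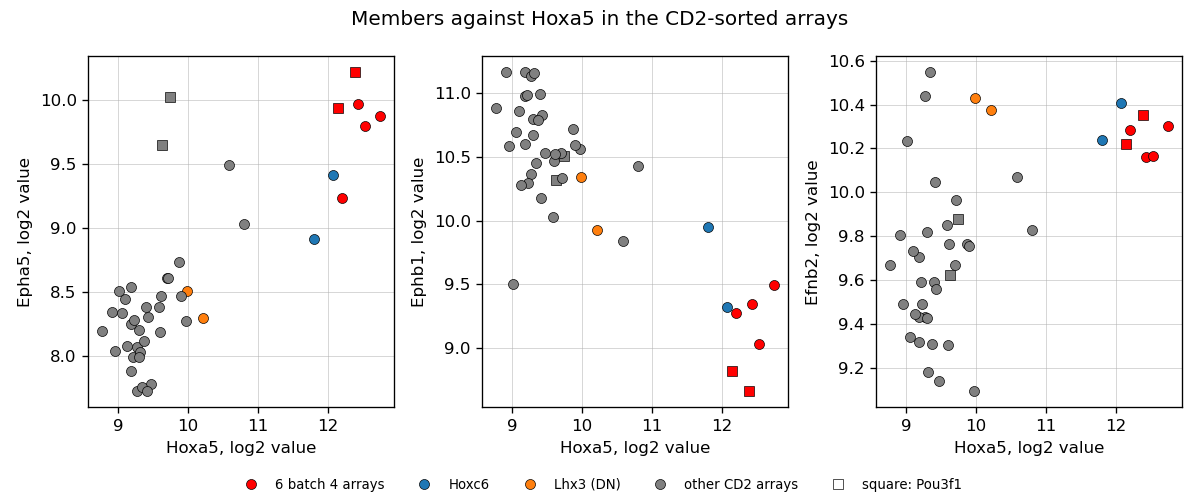
Log2 values of Epha5, Ephb1 and Efnb2 against Hoxa5 in the 45 CD2 arrays, red for the 6 batch 4 arrays, blue for Hoxc6 and orange for Lhx3 (DN), with squares for Pou3f1. The 6 arrays lie at Hoxa5 values of 12.14 to 12.75 with Epha5 from 9.24 and Ephb1 up to 9.50.

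The remaining family had 8 of 9 other receptors and 4 of 4 other ephrins measured, on lists chosen with these data known. Ephb3, an ephrin-B receptor, rose in 5 comparisons with YFP, by 1.02 with Pou3f1 and Lhx3 (DN), 0.74 with NERT for 30 h and 0.51 to 0.55 in the other three. Epha8 rose in 2, by 1.57 with Notch1 ICD and 0.44 with NERT, both for 30 h. Epha6 fell in 3, by 1.33 with Notch1 ICD for 30 h, 1.54 with Pou3f1 and Lhx3 (DN) and 1.57 with Pou3f1 and Hoxc6. Efnb1 rose in 3 Notch comparisons, by 1.35 and 0.62 with Notch1 ICD for 30 h and 10 h and 0.75 with NERT for 30 h. The others of both lists passed in none of the 27.

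Of the genes that carry Eph signals, 36 of 38 were measured. Vav3, a signalling protein recruited by Eph receptors, rose in 8 comparisons, those being the 7 Pou3f1 lines and Lhx3 (DN), by 0.58 to 1.55. Ngef (ephexin), which acts downstream of EphA receptors, fell in 7, for example by 0.46 with Pou3f1 in CD14 cells and 0.70 with Lhx3. Chn2, of the chimaerin family, rose in 5 and fell in 1.

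Among the 6 receptors that act beside ephrin-As in motor axons, Ntrk2 rose in 8 comparisons, by 0.61 to 2.36, and Gfra1 in 4, by 1.06 to 1.62. Ret, which works with ephrin-A in the choice of the dorsal limb, fell in 6, by 2.41 with Pou3f1 and Lhx3 (DN) and by 1.03 with NERT for 30 h. All 14 listed regulators were measured. Lhx1, the LIM factor that acts upstream of Epha4 in the lateral motor column, was called in some of the 5 lines where Epha4 rose and not in others. It rose by 4.10 with Lhx3 (DN) and 3.59 with Pou3f1 and Lhx3 (DN). With Lhx3, where Epha4 rose most, Lhx1 read 7.70 to 8.37 against 7.54 to 8.32 under YFP, a difference of -0.31 (adjusted p = 0.768), with Notch1 ICD for 30 h it differed by -0.04 (0.974) and with Hoxc6 by 0.89 (0.44). In CD2 cells with Pou3f1, where Epha4 was not called, Lhx1 rose by 1.24 (adjusted p = 0.0191). Foxp1, a cofactor of limb motor neuron identity, rose by 2.91 with Hoxc6. Lhx3 itself rose by 3.31 with Lhx3 and 3.89 with Pou3f1 and Lhx3. Motor neuron markers moved in the (DN) lines too: 5 of 11 fell and 1 rose with Lhx3 (DN), and 6 of 11 fell with Pou3f1 and Lhx3 (DN), and their part in the Epha4 rises was not tested. Pou3f1 as read by its probes rose in 5 of its own 7 lines and in 1 without the transgene, Notch1 ICD for 30 h, by 0.88 (adjusted p = 0.000635). In CD14 cells the difference was 0.45 (adjusted p = 0.583) with Pou3f1 and 0.48 (adjusted p = 0.182) with Flag and Pou3f1, and neither passed.

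The genes whose batch-adjusted values ran most like a member were named over 66 arrays, which share lines and batches, so the correlations are descriptions. For Epha5 they were Inpp4b (r = 0.928), Chd3 (0.894) and Elmod1 (0.883), and for Efna1 Wnt4 (0.948), Adarb1 (0.939) and Vcam1 (0.929). Epha4 ran with Sox5 (0.897), Fat3 (0.855) and Ext1 (0.852), Ephb1 with Hip1 (0.882), Slc4a4 (0.873) and Eya1 (0.868), and Efnb2 with Dab1 (0.871), St3gal1 (0.869) and Lratd1 (0.855). Epha3 and Epha7 shared Cemip2 (0.812 and 0.814), beside Arhgap18 (0.798) and Il18 (0.764) for Epha3 and Fras1 (0.83) and Plekhh2 (0.816) for Epha7. Efna3 ran with Limk2 (0.87), Atp6v0d1 (0.838) and Rubcn (0.811), and Efna5 had no gene above Usp42 (0.565), followed by Slc25a51 (0.555) and Erc1 (0.551).

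Between members, the highest correlations were those of Efnb2 with Epha4 (0.769), Epha4 with Epha7 (0.748) and Epha3 with Epha7 (0.694). Ephb1 ran against most of the others, at -0.648 with Epha5, -0.573 with Efnb2 and -0.535 with Epha4. Efna1 stayed between -0.281 (Epha5) and 0.316 (Ephb1) with every other member.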

How the data were processed

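The deposited table held log2 values of 35556 transcript clusters on 68 Affymetrix mouse gene arrays. The log2 scale comes from the authors' own RMA processing (background correction, quantile normalization and summary of probes), run with oligo, per the submitters' processing notes. For neither tool is a version given in the sources used here, nor an annotation build. Scanner intensities were not analysed here, so detection of single probes was not examined, and the number of arrays limits the precision.

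Clusters annotated to 1 symbol were kept, 21789 of them, with the highest mean cluster of each gene, which left 19938 genes. All array columns were matched to samples by name, and groups, reporters, batches and induction times came from the labels. All 68 arrays entered a single limma model (limma 3.58.1, R 4.3.3) with terms for group and batch, 31 residual and 6.08 prior degrees of freedom. YFP was missing from batches 4 and 5, and CD2 YFP from batch 6, so those comparisons run through lines found in several batches. Single arrays were left out only from the groups compared, so the tie through H4 was not tested that way. Batch 0 was compared with nothing. Induced lines or H4 were set against YFP 27 times and against each other 9 times, and 1 test set the Pou3f1 effects in the reporters against each other. Nothing in the labels ties replicates to separate cultures: p-values then measure only the spread between these samples, and it may be technical. Replicates within a batch had correlations over genes of 0.987 to 0.998 (21 pairs).

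The members, gene lists, tests and the 6 arrays set apart were chosen with earlier results of these data known. All members were named in every comparison, from the pathway lists at most 3 changed genes a list and comparison (the largest), and for each member its 3 most correlated genes. The model was tested on simulated data. The alternatives were no batch terms, the reporters fitted apart, leaving out the 6 arrays, batch 4 or single arrays, renewed quantile normalization, a filter on dim genes, the mean of a gene's clusters, a trended robust prior, a replicate block, and single batches.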

Additional observations from a re-analysis of the deposited data

Results flagged for a closer look

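Dixon's test for a single outlying array was run on the 9 members in the 3 groups of 4 arrays, 27 tests in all, of which chance flags about 1 in 20. It marked Epha4 in YFP arrays of CD2 cells, where the batch 1 array read 8.71 and the nearest other 9.57, a gap of 0.838 of the group's range. Epha4 comparisons of CD2 lines use this array together with 3 others, and the model holds a batch 1 term. No rise of Epha4 was lost without it.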

How the results depend on the processing

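Against YFP, 33 pairs of a member and a line passed as reported. The count was 28 without batch terms, 41 without the 6 batch 4 arrays, 40 without batch 4, 34 after renewed quantile normalization, 33 without dim genes, 32 with the mean of a gene's clusters, 32 with a trended robust prior and 43 with the reporters fitted apart. Of these pairs, 17 kept direction and call under every alternative that could be run, left-out arrays included, among them all 4 of Efna1, and Epha5 in the 4 lines that join Pou3f1 with a second factor. Between lines 12 pairs passed, but 3 without batch terms and 28 with the reporters fitted apart, and 2 of the 12 kept their call throughout. Ephb1 under Notch1 ICD for 10 h turned from 1.23 to -0.12 without batch terms. Epha7 under Lhx3 gave 0.38 (adjusted p = 0.451) there, the plain gap between group means of 10.005 and 9.624. The rest of its fitted rise of 1.50 came through the batch terms, since both Lhx3 arrays lie in batches without CD2 YFP. The Pou3f1 effect between reporters called 0 members throughout. The fit with the reporters apart cannot give it.

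The labels do not say whether replicate numbers pair the samples. Within a batch, the difference between replicates 1 and 2 was correlated over genes between groups. The correlation was above 0.1 in 6 of 15 pairs of groups in batch 3 (r -0.172 to 0.565), 2 of 10 in batch 6, 1 of 3 in batch 7 and the single pair in batch 4 (r = 0.147). The replicate block held 1 term per replicate number over all batches, so it does not test a pairing within a batch. Pou3f1 with Lhx3 has only replicates 3 and 4, so its differences partly mix with those terms. With this block the counts were 24 against YFP (25 comparisons could be fitted), 8 between lines and 0 between reporters. Calls not made under the block were Epha5 with Pou3f1 in CD2 cells (1.04, adjusted p = 0.0858) and in CD14 cells (1.26, 0.0512), Epha3, Ephb1 and Efnb2 with Pou3f1 and Lhx3 (adjusted p 1, 0.75 and 0.0984), Ephb1 with Pou3f1 and Lhx3 (DN) (0.0875), Epha4 with Notch1 ICD for 30 h (0.0541) and Efnb2 with Lhx3 (0.0922). Epha7 with Klf5 could not be fitted. Between lines they were Epha5 for Hoxa5 added to Pou3f1 (0.0911), Epha4 and Ephb1 between the Hox genes (0.151 and 0.111) and Epha3 between Lhx3 and Lhx3 (DN) (0.0864).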
